A study of Mus musculus with 16 samples.

Results

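Transcription factors that set the basal and luminal lineages of the mouse mammary epithelium were followed across cell classes and along the gland. The 10 factors, *Trp63*, *Snai2*, *Sox9*, *Sox10*, *Elf5*, *Ehf*, *Foxa1*, *Gata3*, *Tbx3* and *Runx1*, were taken by name from the 17721 genes of the table, and all of them were found in it. The study dissected single structures from the pubertal gland, turned each into a suspension of cells, sorted the cells into wells and read the 3' ends of their RNA with molecular identifiers (UMIs). There were 4 nipples, 6 ducts and 6 terminal end buds (TEBs, the growing tips of the ducts). All came from 5-week-old mice labelled C57BL/6 that carried K14-Cre and the R26-mTmG reporter, so nipple, duct and TEB share the same transgenes, with Cre under the promoter of a basal keratin gene. No group was treated.

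Of 1419 deposited cells, 1318 passed the limits on depth and spike-in share, and the 16 fragments held between 67 and 88 of them. The unit of comparison was the fragment: UMIs were summed over the cells of a class within a fragment (at least 5 cells) and expressed as CPM (counts scaled to the same total of gene UMIs), scaled within the class. Classes were rebuilt by clustering with the 10 factors left out and were named from marker genes, which did not include the factors. Basal-like cells (294, 16 fragments) had 302554 to 1210315 UMIs per sum. ER+ luminal-like cells (430, 16 fragments) had 315342 to 2061534 UMIs per sum. A cluster of 68 cells, named from mast cell markers, was left out of the epithelial classes. It held the ER+ markers *Cited1* at 1839 CPM and *Prlr* at 474 CPM, so ER+ cells may be missing from the class. ER- luminal-like cells (177) were in sums of 5 or more cells in 14 fragments, with 227131 to 726350 UMIs, and 2 TEBs had too few. The basal-like class was made of a cluster led by *Cnn1*, *Ltbp2* and *Krt5* that held 96 nipple and 115 duct cells and no TEB cell, and of a cluster led by *Slc6a15* and *Gpx2* with 82 TEB cells, 1 nipple cell and no duct cell. The latter had none of the basal markers among its 10 leading genes, and every TEB value of the basal-like class rests on that cluster. All 8 basal markers were detected at every location, but their summed level was 4257 to 8575 CPM in TEB sums, against 19190 to 22700 CPM in the nipple and 23360 to 33300 CPM in the duct. Fibroblast markers (6 of 6 detected) summed to 931 to 1979 CPM in nipple basal-like sums, 273 to 463 CPM in duct and 215 to 460 CPM in TEB, and were likewise higher in the nipple sums of both luminal classes. The ER+ and ER- marker lists share *Krt8* and *Krt18*, so their sums did not part the luminal classes, but the receptor genes did: *Pgr* was at 123 CPM in ER+ and 1.67 CPM in ER- sums, and *Esr1* at 47.4 and 3.79 CPM. *Kit*, a marker of ER- cells, was at 109 CPM over the ER- cells and at 0.819 and 8.39 CPM over the ER+ clusters. The labels do not say which fragments came from the same mouse, so p-values measure the spread between fragments only.

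The mammary duct is a bilayer, with contractile basal cells outside and luminal cells inside, and the luminal cells divide into hormone-sensing ER+ cells and ER- cells that include the precursors of milk-secreting alveoli. p63 (*Trp63*) and Slug (*Snai2*) are the classical factors of the basal layer. Foxa1 and Gata3 work with the oestrogen receptor in hormone-sensing cells, and Elf5 and Ehf are ETS factors, of which Elf5 drives alveolar fate. Sox9 and Sox10 have been tied to progenitor states, Tbx3 to early mammary placode formation, and Runx1 to lineage choice in several epithelia as well as in blood.

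Snail-family factors such as Snai2 bind the E-box CAGGTG, so promoter windows that hold it are shown for *Elf5* and *Foxa1*, luminal factors with a match. The promoter of *Gata3*, also a luminal factor, held no match to the E-box. RefSeq promoters (250 bases before to 50 bases after a start, GRCm38.p6) matched 4 of the 10 factors, *Elf5*, *Foxa1*, *Gata3* and *Runx1*. Before the upstream *Elf5* start the E-box lies on the opposite strand in both windows printed here, in capitals, from the + strand, 5' to 3':
*Elf5* at chr2:103411931-103411960: aggaccctgctaCACCTGggaggctgctta
*Elf5* at chr2:103411974-103412003: cagaggaggtgcCACCTGcctggaagcagt
For *Runx1*, whose basal-like level parted all 3 locations, the distal start (the gene lies on the - strand) is followed by a pair of matches to the RUNX motif TGTGGT on the opposite strand, capitals again marking the match:
*Runx1* at chr16:92826029-92826058: acctcataaacaACCACAgaaccacaagtt
*Runx1* at chr16:92826025-92826054: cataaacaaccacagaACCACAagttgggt
For *Foxa1*, also low in basal-like cells, the promoter on the - strand holds the E-box at 1 place:
*Foxa1* at chr12:57546117-57546146: gcggccgcctcaCAGGTGcacctcgggctt
The E-box was also in the distal promoter of *Runx1*, at -136 from the start, a gene with a high level in basal-like cells, so it was not limited to factors that are low there. Searched on both strands, the E-box letters were in 20.2% and the RUNX letters in 16.8% of the 32851 promoters of the table, so a match is common and says nothing of binding.

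*Trp63* (ENSMUSG00000022510, chr16:25683763-25892102, GRCm38, + strand), which encodes p63, was a basal gene in these cells. Its level in the sums per fragment was 37.9 ± 32.6 CPM (SD, n = 16) in basal-like cells, 1.12 ± 1.54 CPM (n = 16) in ER+ and 2.13 ± 6.26 CPM (n = 14) in ER- luminal-like cells. Basal-like was above ER+ in 15 of 16 fragments and equal in the other, at 0. In the ER- cells 16 of the 19 UMIs came from TEB T42, and 15 of those from 1 cell. Class differences here and below are descriptions and carry no test, since the classes were formed from the same cells.

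*Snai2* (ENSMUSG00000022676, chr16:14705852-14709385, + strand), which encodes the zinc-finger repressor Slug, had the widest gap between basal-like and luminal cells among the 10. It reached 164 ± 66.5 CPM (SD, n = 16) in basal-like sums against 2.55 ± 5.42 CPM in ER+ (n = 16) and 1.06 ± 1.49 CPM (n = 14) in ER- sums, with basal-like higher in every fragment of both pairs. The lowest basal-like sum, 53.7 CPM, lay above the highest luminal sum, 22.1 CPM in nipple N24. RNA carried over from other wells of the plate, gauged from fibroblast and myeloid marker UMIs in epithelial cells, would give 62.5 *Snai2* UMIs in ER+ cells where 38 were counted, and 12.6 in ER- cells where 6 were counted, so the luminal values did not exceed that background. *Snai2* was also found in fibroblast-like cells, 23.4% of which held a UMI (34.8 CPM over all of them).

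*Sox9* (ENSMUSG00000000567, chr11:112782224-112787760, + strand), an HMG-box factor, was present in all classes. The mean was 413 ± 189 CPM (n = 14) in ER-, 268 ± 83.5 CPM (n = 16) in ER+ and 198 ± 114 CPM (n = 16) in basal-like sums. ER- exceeded ER+ in 10 of 14 fragments and basal-like in 12 of 14, and the ranges overlapped throughout. A *Sox9* UMI was seen in 89.8% of ER+ cells, 85.9% of ER- cells and 70.1% of basal-like cells. It was seen in 31.75% of fibroblast-like and 11.5% of myeloid-like cells.

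*Sox10* (ENSMUSG00000033006, chr15:79154908-79165240, - strand), from the same family, joined the basal-like with the ER- class. It measured 144 ± 42.8 CPM (n = 16) in basal-like, 149 ± 47.7 CPM (n = 14) in ER- and 11.1 ± 8.98 CPM (n = 16) in ER+ sums. Basal-like was above ER- in 7 of 14 fragments and below in 7, with a median log2 difference of -0.03 (SD 0.48), whereas ER- exceeded ER+ in 14 of 14 and basal-like exceeded ER+ in 16 of 16. Of the 161 UMIs in ER+ cells, 91.8 would be given by other wells, and in 7 of the 9 ER+ sums with at least 10 UMIs more than 50% of them came from 1 cell. The ER+ cluster led by *Csn1s2a* held 147 of the UMIs (14.5 CPM) and the one led by *Prl2c2* 14 (1.91 CPM). The ER- markers *Kit* and *Aldh1a3* were at 8.39 and 139.5 CPM in the former and 0.819 and 28.8 CPM in the latter. *Krt8* and *Krt18*, on both luminal lists, were lower in the former. The part of ER- cells in the ER+ level was not tested. *Sox10* is also a Schwann cell and melanocyte factor. Markers of those cells (6 in the table) had a median sum of 2.15 CPM in TEB basal-like sums with a highest value of 324 CPM. The medians were 16.5 CPM in duct and 44.1 CPM in nipple sums, with highest values of 49.2 and 187 CPM. The part of such cells in the *Sox10* level was not tested. In nipple N21, 40 of the 84 basal-like *Sox10* UMIs came from 1 cell.

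*Elf5* (ENSMUSG00000027186, chr2:103411688-103450989, + strand) was largely limited to ER- luminal-like cells, at 37.0 ± 32.99 CPM (n = 14), against 1.87 ± 2.03 CPM (n = 16) in ER+ and a single UMI in 294 basal-like cells. The ER- class was higher than ER+ in 13 of 14 fragments, the exception being nipple N21, where no *Elf5* UMI was found in ER- cells. In the basal-like cells, 6.61 UMIs would be given by other wells, so *Elf5* was not detectable over background there. No *Elf5* UMI was found in 252 fibroblast-like cells, which allows a share of cells with a UMI of up to 1.19%, or in 78 myeloid-like cells, which allows 3.85%; these limits and all shares of cells cover counting error only.

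*Ehf* (ENSMUSG00000012350, chr2:103263433-103303278, - strand) is the neighbour of *Elf5* on chromosome 2, with 108409 bases and no protein-coding gene between them. It followed the same order of classes over a wider span: 291 ± 147.6 CPM (n = 14) in ER-, 54.1 ± 18.9 CPM (n = 16) in ER+ and 3.39 ± 6.57 CPM (n = 16) in basal-like sums. ER- exceeded ER+ in 14 of 14 fragments (median of ER+ minus ER- -2.26 on the log2 scale) and ER+ exceeded basal-like in 16 of 16 (median of basal-like minus ER+ -4.15). The 28 basal-like UMIs were fewer than the 59.1 that other wells would give. In ER+ cells *Ehf* was clearly measured, and 43.5% of them held a UMI. For *Elf5* 3.72% of ER+ cells did, with 32 UMIs where other wells would give 9.21. Of the 177 ER- cells, 38.4% held an *Elf5* UMI, 67.2% an *Ehf* UMI and 31.1% both, an overlap that was not tested.

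*Foxa1* (ENSMUSG00000035451, chr12:57540628-57546916, - strand), a forkhead pioneer factor, was an ER+ gene at 118 ± 37.3 CPM (n = 16), against 12.7 ± 17.3 CPM (n = 14) in ER- and 6.74 ± 13.0 CPM (n = 16) in basal-like sums. It was higher in ER+ cells in 16 of 16 and 14 of 14 fragments. The 65 basal-like UMIs compare with 59.6 given by other wells, and 27 of them came from 1 cell of nipple N21. In nipple N24 all 21 ER- UMIs came from 1 cell.

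*Gata3* (ENSMUSG00000015619, chr2:9857078-9890034, - strand), a zinc-finger factor of the luminal lineage, was highest in ER+ cells at 308 ± 130 CPM (n = 16), but present in the ER- class at 130 ± 70.9 CPM (n = 14) and in the basal-like class at 88.4 ± 41.2 CPM (n = 16). ER+ led in 16 of 16 and 14 of 14 fragments. Other wells would give 25.1% of its basal-like UMIs, so basal *Gata3* was above that background. It was found in 52.4% of basal-like cells against 9.92% of fibroblast-like and 15.4% of myeloid-like cells. Of the 430 ER+ cells, 70.2% held a *Foxa1* UMI, 86.5% a *Gata3* UMI and 62.3% both, an overlap that was not tested. *Gata3* shares exon bases with 9230102O04Rik on its own strand and with the antisense gene Gm13256, and the strand setting of the counting is not given in the sources used here, so its level may include reads of these genes or lack its own.

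*Tbx3* (ENSMUSG00000018604, chr5:119670669-119684724, + strand), a T-box repressor, was at 66.7 ± 23.3 CPM (n = 16) in ER+, 34.2 ± 17.9 CPM (n = 16) in basal-like and 13.9 ± 15.5 CPM (n = 14) in ER- sums. ER+ was higher than basal-like in 15 of 16 fragments and higher than ER- in 14 of 14. The fibroblast-like cells held more of it, 135.5 CPM over 252 cells, and their level differed by place: 266.4 CPM in the 116 nipple cells, 33.3 CPM in 38 duct cells and 16.1 CPM in 98 TEB cells, pooled over cells and with no test. Other wells would give 42.8% of the ER- and 19.5% of the basal-like UMIs. An antisense gene, Tbx3os1, overlaps its exons.

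*Runx1* (ENSMUSG00000022952, chr16:92601466-92826149, - strand), a Runt-domain factor, was in every class. It averaged 261 ± 206 CPM (n = 16) in basal-like, 181 ± 41.3 CPM (n = 16) in ER+ and 108 ± 43.7 CPM (n = 14) in ER- sums. Basal-like was above ER+ in 9 of 16 fragments only, while ER+ was above ER- in 13 of 14. The large SD of the basal-like class is its location pattern, given below. Myeloid-like cells had 163 CPM, and an antisense gene, Gm26626, shares exon bases with *Runx1*.

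**Figure D1:**
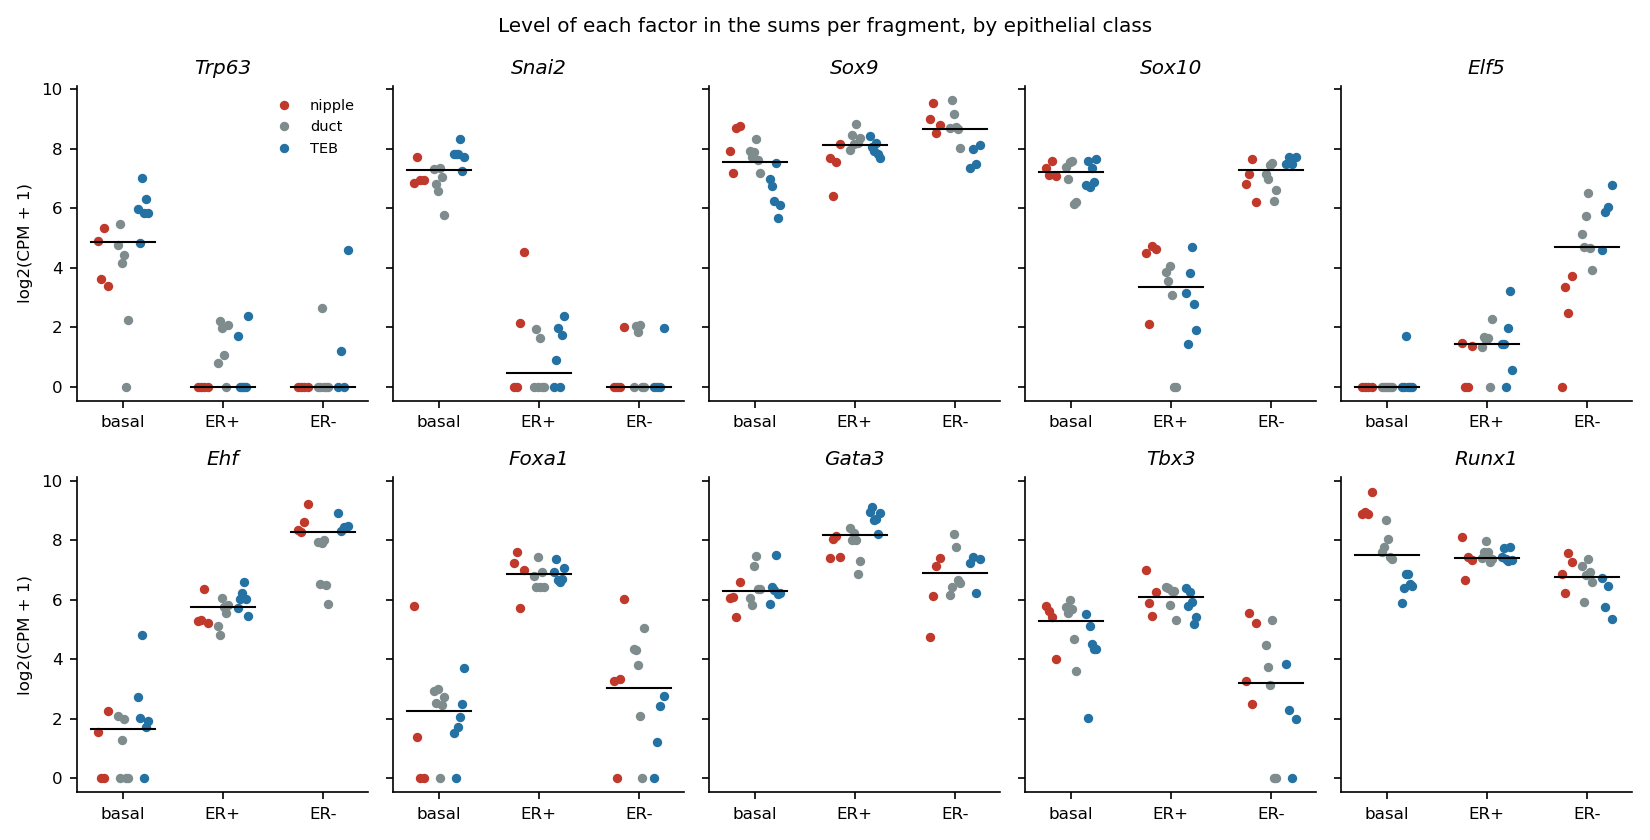
Level of the 10 factors, as log2(CPM + 1), in the sum of each fragment and class; each point is a fragment coloured by location and the black line is the median of the class. *Snai2* and *Trp63* stand high in basal-like cells, *Elf5* and *Ehf* in ER- cells and *Foxa1* in ER+ cells, while *Sox10* is alike in basal-like and ER- cells at 144 and 149 CPM.

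Depth differed between classes (medians of 25194 UMIs per basal-like, 36352 per ER+ and 26126 per ER- cell), so each cell was also thinned to 5000 UMIs. All 294 basal-like and 430 ER+ cells were deep enough and 1 of 177 ER- cells was left out. After thinning, *Snai2* was found in 35.7% of basal-like cells (54.4% before) and in 0.465% of ER+ cells (6.28% before). *Sox10* was found in 39.5% of basal-like and 39.8% of ER- cells, and *Elf5* in 13.6% of ER- cells. These shares set out the same order of classes as the CPM.

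**Figure D2:**
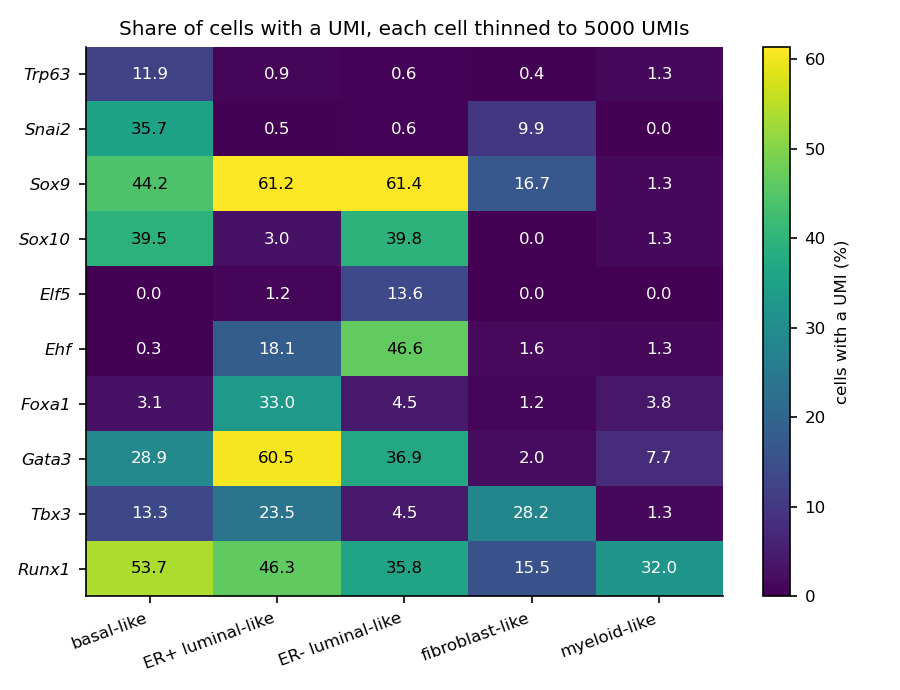
Share of cells with at least 1 UMI of each factor (rows) in each class (columns), in percent, after every cell was thinned to 5000 UMIs. *Sox9* was in 61.2% of ER+ and 61.4% of ER- cells, *Tbx3* in 28.2% of fibroblast-like cells and *Runx1* in 32.1% of myeloid-like cells.

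Location was then tested within each class in a single edgeR fit of nipple, duct and TEB (quasi-likelihood), with p-values adjusted over all genes tested (threshold 0.05). In basal-like cells 7 of the factors had enough counts to be tested and 4 of them, *Runx1*, *Sox9*, *Snai2* and *Trp63*, differed over the 3 locations, where 20.6% of all 7316 genes tested did. *Sox10*, *Gata3* and *Tbx3* did not pass, and *Elf5*, *Ehf* and *Foxa1* were too low to be tested. Between nipple and TEB 2 of 7 were past the threshold, both higher in the nipple (18.7% of all genes in either direction). Between nipple and duct 1 of 7 was (6.29% of all genes), and between duct and TEB 4 of 7, 2 in each direction (10.4% of all genes).

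*Runx1* in basal-like cells fell from nipple to duct to TEB without overlap. The nipples had 473, 488, 471 and 786 CPM. The ducts ranged from 163 through a median of 206 to 409 CPM, and the TEBs from 58.4 through 88.8 to 115 CPM. Every nipple was thus above every duct, and every duct above every TEB. The means were 554 ± 155 (SD, n = 4), 236 ± 92.2 (n = 6) and 91.4 ± 21.6 CPM (n = 6). On the log2 scale the fitted difference was 2.60 (SE 0.25) for nipple over TEB, 1.23 (SE 0.24) for nipple over duct and 1.37 (SE 0.23) for duct over TEB, with edgeR adjusted p of 1.48e-09, 0.00125 and 6.3e-05. The share of basal-like cells with a *Runx1* UMI in thinned cells was 77.3%, 51.3% and 29.3% in the same order. Nipple and duct cells belonged to the same cluster, where *Runx1* was at 540.5 CPM over the nipple cells and 240.3 CPM over the duct cells. Fibroblast-like cells had a like order at a lower level (89.1, 14.7 and 6.95 CPM), and other wells would give 2.93% of the nipple, 8.43% of the duct and 16.2% of the TEB basal-like UMIs.

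*Sox9* in basal-like cells was lowest in the TEB. The nipples had 243, 142, 412 and 429 CPM, the ducts 144 to 317 CPM with a median of 221, and the TEBs 49.4 to 180.5 CPM with a median of 90.5. The TEB values overlapped both other groups at their upper end. The log2 difference was 1.63 (SE 0.31, edgeR adjusted p = 0.000201) for nipple over TEB and 1.17 (SE 0.29, adjusted p = 0.00499) for duct over TEB, and 0.46 (SE 0.31, adjusted p = 0.488) for nipple over duct. Other wells would give 21.7% of the TEB, 15.2% of the duct and 4.23% of the nipple UMIs.

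The basal-layer factors had higher means in the TEB than in the duct, and for *Trp63* the call rested on the setting. *Trp63* had 28.98, 11.3, 39.2 and 9.33 CPM in the nipples, 0 to 43.2 CPM (median 18.7) in the ducts and 27.3 to 127 CPM (median 59.1) in the TEBs. Of its 368 basal-like UMIs, 278 were in TEB cells. The highest duct and nipple sums overlapped the lowest TEB sum. The difference between duct and TEB was -1.91 on the log2 scale (SE 0.60, edgeR adjusted p = 0.033) and that between nipple and TEB -1.64 (SE 0.67, adjusted p = 0.088). A *Trp63* UMI was found in 63.4% of TEB, 17.4% of duct and 13.4% of nipple basal-like cells, and in 26.8%, 6.09% and 6.19% of them after thinning; TEB cells were the deepest, with a median of 43901 UMIs against 23039 and 21458. In nipple N23, 14 of the 16 UMIs came from 1 cell. The call between duct and TEB was lost without duct D51, D52, D61 or D62 or TEB T33 or T42 (log2 differences of -1.95 to -1.64, adjusted p of 0.0516 to 0.103). It was also lost with at least 10 cells per sum (-1.81, edgeR adjusted p = 0.0855) and with classes taken from marker lists (-1.60, 0.163). In the 4 fragments numbered 31 and 32, with the number as a replicate block, the difference was only -0.30 (0.95). In all, 9 of the 27 settings in which *Trp63* was tested lost the call, where *Runx1*, *Snai2* and *Sox9* were tested in 28.

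*Snai2* had 114, 207, 123 and 123 CPM in the nipples, 53.7 to 161 CPM (median 120.0) in the ducts and 152 to 320.5 CPM (median 224) in the TEBs. Of the ducts, 2 lay above the lowest TEB. TEB was above duct by 0.95 on the log2 scale (fitted duct minus TEB -0.95, SE 0.26, edgeR adjusted p = 0.013), and nipple minus TEB was -0.67 (SE 0.29, adjusted p = 0.112). With cells thinned to 5000 UMIs the call between duct and TEB was lost (-0.82, adjusted p = 0.0787). The means of *Trp63* and *Snai2* were thus above those of the duct in TEB basal-like cells, where the summed level of the 8 basal markers, cytoskeletal genes and keratins, was lowest.

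*Sox10* in basal-like cells gave means of 155 ± 27.3 (nipple, n = 4), 135 ± 54.7 (duct, n = 6) and 147 ± 42.7 CPM (TEB, n = 6), with fitted differences between -0.14 and 0.21 and standard errors of 0.28 to 0.31. *Gata3* and *Tbx3* had log2 differences between -0.56 and 0.75 with standard errors of 0.34 to 0.59, so differences of that size could not be told from none here.

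**Figure D3:**
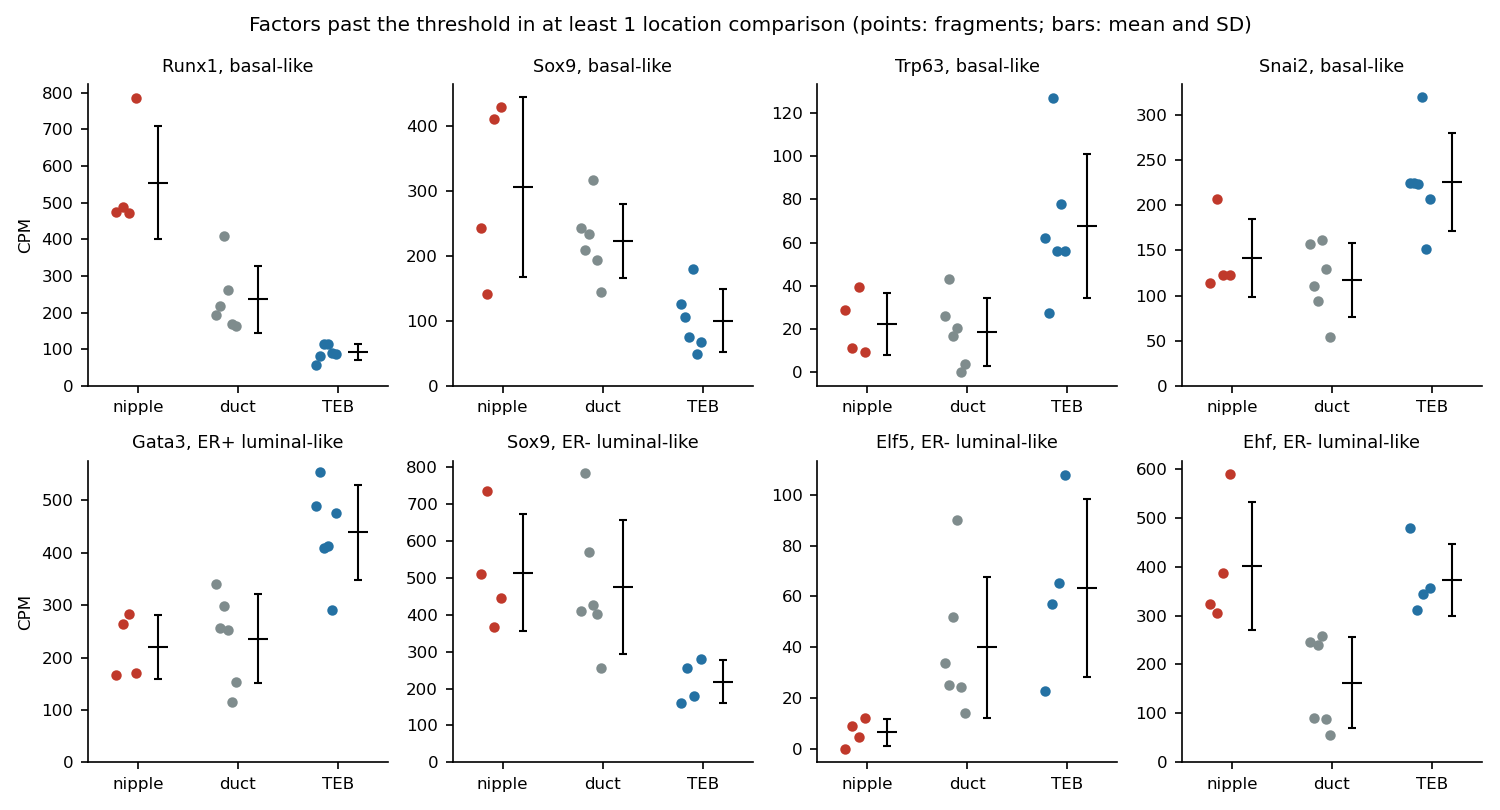
CPM in each fragment for the 8 pairs of factor and class past the threshold in at least 1 comparison of locations; points are fragments and the bars give mean and SD. *Runx1* in basal-like cells separates all 3 locations, and *Elf5* in ER- cells is at 12.1 CPM or below in all 4 nipples.

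In ER+ luminal-like cells 7 factors were tested and 1 differed over the locations, *Gata3* (5.70% of all 8832 genes did). *Gata3* rose in the TEB. The nipples had 166, 263, 283 and 171 CPM, the ducts 116 to 341 CPM (median 255) and the TEBs 291 to 553 CPM (median 445). All TEBs were above all nipples, and 2 ducts reached into the TEB range. The log2 difference was -0.999 for nipple minus TEB (SE 0.24, edgeR adjusted p = 0.010) and -0.90 for duct minus TEB (SE 0.21, adjusted p = 0.0162), while nipple minus duct was -0.10 (SE 0.24, adjusted p = 0.91). The share of all genes called was 5.67%, 1.82% and 2.03% in these 3 comparisons, and *Gata3* was the only member called in the first and second; in the third none was called by edgeR, and 1, *Sox9*, had an unadjusted p under 0.05 (0.00203). The class held 2 clusters, and *Gata3* was at 522, 229.5 and 326 CPM over the TEB, duct and nipple cells of the one led by *Prl2c2* and at 405, 228 and 188.5 CPM in the one led by *Csn1s2a*. The call was lost when cells were thinned to 5000 UMIs (nipple minus TEB -0.62, adjusted p = 0.218).

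*Sox9* in ER+ cells ran lowest in the nipple, with 203, 84.5, 184 and 284 CPM, against 245 to 457 CPM in the ducts and 203 to 338 CPM in the TEBs. It stayed short of the threshold over the locations (edgeR adjusted p = 0.0957) and between nipple and duct (log2 difference -0.76, SE 0.23, adjusted p = 0.076), and passed over the locations when nipple N24 was left out. *Runx1*, which changed so steeply in basal-like cells, was at 176 ± 72.6 CPM in nipple, 187 ± 34.6 in duct and 179 ± 26.3 CPM in TEB ER+ sums, with log2 differences between -0.07 and 0.06 and standard errors of 0.19 to 0.22. Fibroblast marker RNA was at 850 to 2174 CPM in the nipple ER+ sums and at 931 to 1979 CPM in the nipple basal-like sums. Its part in the *Runx1* levels was not tested. *Foxa1* was at 130 ± 59.0, 109.7 ± 34.5 and 119 ± 26.7 CPM in nipple, duct and TEB ER+ sums, with log2 differences between -0.12 and 0.23 and standard errors of 0.25 to 0.28. *Ehf*, *Tbx3* and *Sox10* did not pass either.

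In ER- luminal-like cells 6 factors were tested in 4 nipples, 6 ducts and 4 TEBs. Over the locations *Sox9* and *Ehf* differed (4.38% of all 5597 genes did), and *Elf5* came out at an adjusted p of 0.058 over the locations and past the threshold between nipple and TEB. Of the 6, 2 were called between nipple and TEB (4.65% of all genes), 1 in each direction, 1 in the comparison of nipple with duct (1.66%) and 1 in that of duct with TEB (1.43%).

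*Elf5* was scarce in the nipple, with 0, 9.11, 4.58 and 12.1 CPM from 8 UMIs in all. The ducts had 14.2 to 90.1 CPM (median 29.4) and the TEBs 22.9, 57.1, 65.3 and 108 CPM. Nipple did not overlap duct or TEB. The log2 difference was -3.24 for nipple minus TEB (SE 0.86, edgeR adjusted p = 0.0212) and -2.55 for nipple minus duct (SE 0.82, adjusted p = 0.132). An *Elf5* UMI was found in 12.5% of the 48 nipple, 42.5% of the 80 duct and 57.1% of the 49 TEB cells of the class, whose median depths were 20115, 24318 and 38137 UMIs. The call between nipple and TEB was lost without nipple N21 (-2.90, adjusted p = 0.0565), nipple N23 (-3.07, 0.0578) or TEB T42 (-2.83, 0.111). With at least 10 cells per sum T33 was the only TEB left, and the difference was -3.12. *Elf5* was tested between nipple and TEB in 24 settings, where *Sox9* was tested in 26.

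*Ehf*, its neighbour, did not follow. The nipples had 323, 305, 387 and 589 CPM and the TEBs 478, 312, 344 and 356 CPM, whereas the ducts had 56.8 to 258 CPM (median 165). No duct reached a nipple or a TEB. Nipple was above duct by 1.30 on the log2 scale (SE 0.33, edgeR adjusted p = 0.0316), duct minus TEB was -1.19 (SE 0.33, adjusted p = 0.0586) and nipple minus TEB 0.11 (SE 0.36, adjusted p = 0.928). The nipple ER- cells thus had high *Ehf* with almost no *Elf5*. The call between nipple and duct was lost without duct D32, D61 or D62 or nipple N21, N23 or N24 (differences of 1.05 to 1.36, adjusted p of 0.0535 to 0.19), and in 4 other settings (1.08 to 1.35, 0.0545 to 0.0811).

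*Sox9* was lower in TEB ER- cells, as in basal-like cells. The nipples had 511, 733, 366 and 444 CPM, the ducts 256 to 785 CPM (median 418) and the TEBs 160.5, 255, 178 and 280.1 CPM. Nipple and TEB did not overlap, and 1 duct lay within the TEB range. The log2 difference was 1.2 for nipple over TEB (SE 0.29, edgeR adjusted p = 0.0123) and 1.09 for duct over TEB (SE 0.27, adjusted p = 0.0304). The first was lost without nipple N22 (0.98, adjusted p = 0.0717) or TEB T32 (1.07, 0.0531), and the second without duct D32 or D51 or TEB T32 or T34 (0.92 to 1.04, 0.0515 to 0.128). With at least 10 cells per sum T33 was the only TEB left, and the differences were 0.95 and 1.02. Neither was called with classes taken from marker lists (1.52 and 1.27, edgeR adjusted p of 0.052 and 0.18). The second was also lost without regression before clustering (1.07, 0.0522).

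*Runx1* in ER- cells had means of 132 ± 49.6, 115 ± 36.2 and 71.1 ± 30.1 CPM in nipple (n = 4), duct (n = 6) and TEB (n = 4), and nipple minus TEB was 0.94 (SE 0.44, edgeR adjusted p = 0.266). *Sox10* and *Gata3* did not pass in any pair, with standard errors of 0.33 to 0.49.

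The nipple ER- sums also carried more basal marker RNA, 1836 to 3553 CPM over the 8 markers (all detected) against 334 to 822 CPM in the duct and 66.2 to 174 CPM in the TEB. Most of it was *Krt14*, at 2062 ± 874 CPM (n = 4) in the nipple. *Acta2*, the smooth muscle actin of basal cells, was at 41.8 ± 6.92 CPM there, below the 132 ± 74.5 CPM of the duct sums. It was also lower over the nipple cells (4224 CPM) than the duct cells (7988 CPM) of the basal-like cluster that holds both. *Trp63* had no UMI in the nipple ER- cells, and a UMI in 13.4% of nipple basal-like cells. The part of basal cell RNA in the nipple ER- sums was not tested. At a clustering resolution of 1 the class split into a cluster led by *Csn1s1* (12 nipple, 53 duct and 42 TEB cells) and another led by *Nat1* (36, 27 and 7 cells). In the first, *Elf5* was at 5.46, 40.7 and 75.1 CPM and *Ehf* at 340.4, 159 and 357 CPM over the nipple, duct and TEB cells. These values are pooled over cells and carry no test, and the nipple value of *Elf5* rests on 3 UMIs in 12 cells. *Sox9* there was at 317, 457 and 247 CPM. The other cluster had *Elf5* at 6.92 CPM over nipple, 24.7 CPM over duct and 17.9 CPM over the 7 TEB cells, and *Ehf* at 443, 168 and 918 CPM. The part of the clusters in the location differences was not tested.

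**Figure D4:**
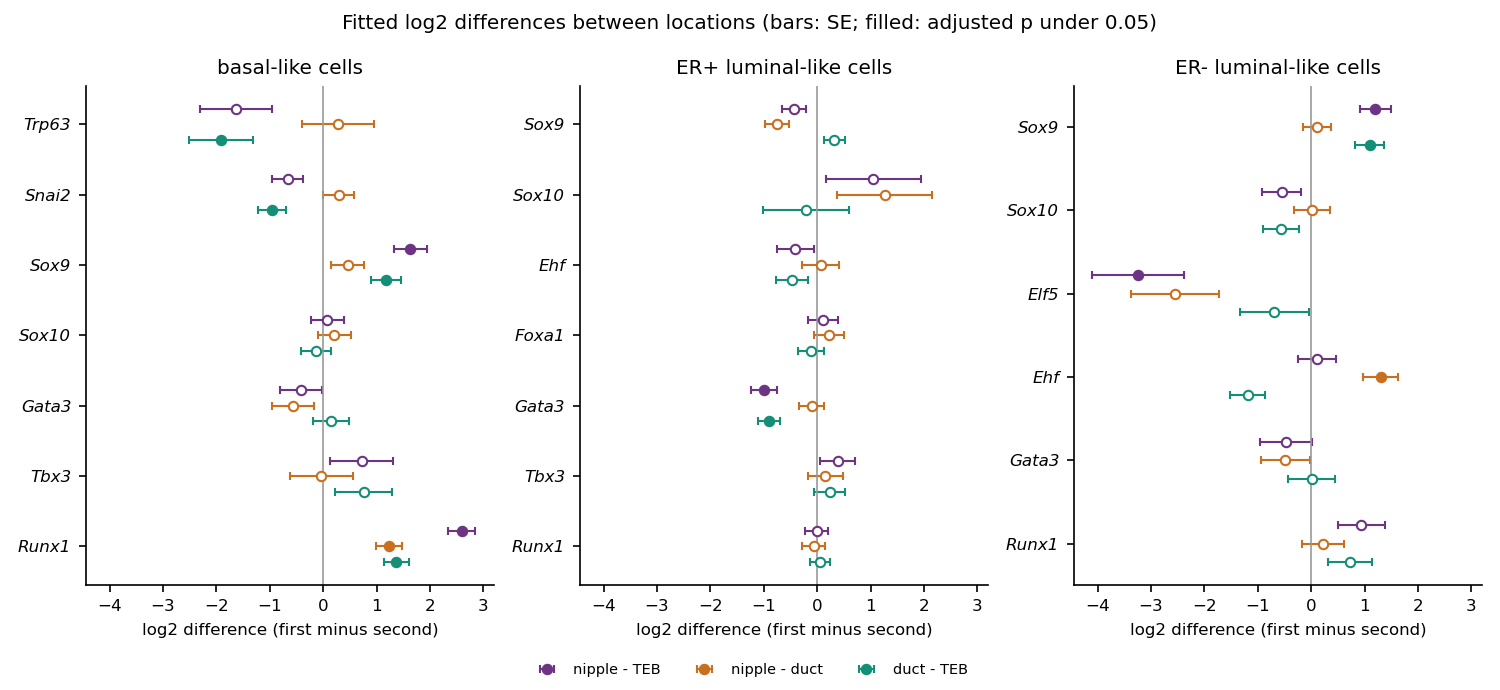
Fitted log2 differences between locations for each tested factor in each class; points are estimates, bars are standard errors and filled points passed an edgeR adjusted p of 0.05. *Runx1* in basal-like cells has 3 filled points from 1.23 to 2.60, and the ER+ class has filled points for *Gata3* alone.

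Whether the location pattern of a factor differed between classes was tested with a class by location term, the fragment being a block. Between basal-like and ER+ cells 2 factors passed, *Runx1* (edgeR adjusted p = 1.22e-06) and *Sox9* (1.85e-05), where 6.85% of 9369 genes did. For *Runx1* the nipple to TEB difference was larger in basal-like than in ER+ cells by 2.69 on the log2 scale (SE 0.33), and for *Sox9* by 2.18 (SE 0.31). The mean *Sox9* level was highest in the nipple in basal-like cells and lowest there in ER+ cells. No factor passed between basal-like and ER- cells (2.77% of 7936 genes did), where 1, *Runx1*, had an unadjusted p under 0.05 (0.00894, adjusted p = 0.169). None passed over the 3 locations between ER+ and ER- cells (1.93% of 8618 genes), where *Sox9* had an adjusted p of 0.0803 and *Ehf* one of 0.284, both with an unadjusted p under 0.05 (0.00186 and 0.017). For *Sox9* the nipple to TEB difference alone differed by -1.67 between these classes (SE 0.42, adjusted p = 0.0247), and the term over the 3 locations passed when nipple N24 was left out.

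**Figure D5:**
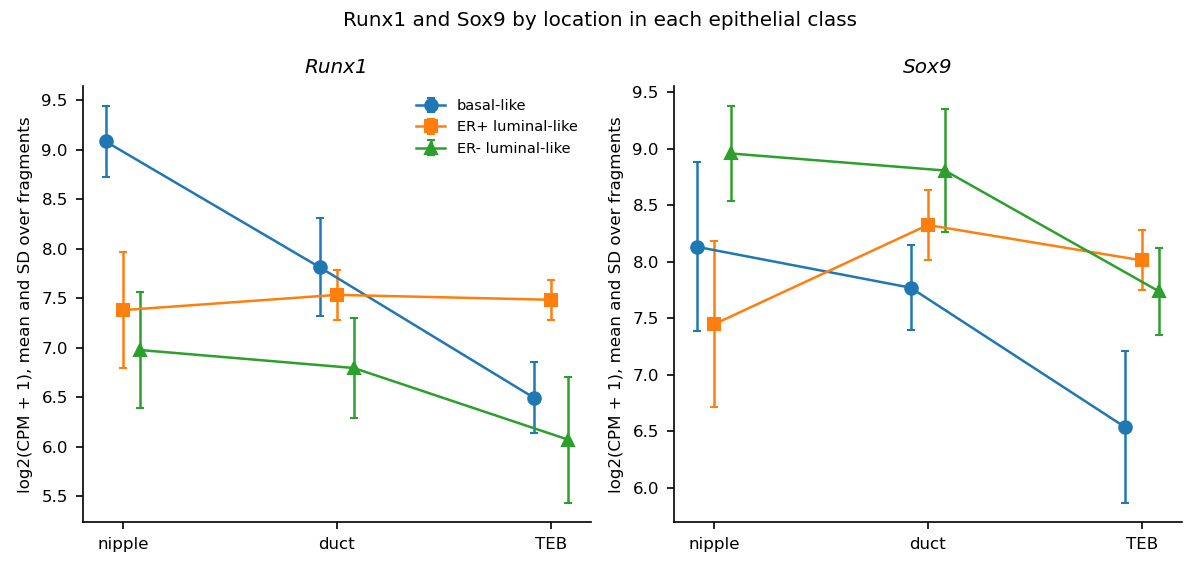
*Runx1* and *Sox9* as log2(CPM + 1) by location in the 3 epithelial classes, mean and SD over fragments, with lines joining the means of a class. *Runx1* falls from nipple to TEB in basal-like cells and lies level in ER+ cells (176, 187 and 179 CPM); *Sox9* in ER+ cells is lowest in the nipple.

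The nearest family members were measured beside the factors. Of 16 relatives 15 were in the table, and 6, 5 and 4 were tested in basal-like, ER+ and ER- cells. Those at 10 CPM or more in some class were *Trp53*, *Elf1*, *Elf3*, *Snai3*, *Runx2* and *Cbfb*, the partner of Runx proteins. *Trp53*, the tumour suppressor of the p63 family, was at 252 CPM in basal-like, 139 CPM in ER+ and 131 CPM in ER- sums. *Elf1* lay between 141 and 190.3 CPM in all classes. *Runx2* was at 16.4 CPM in basal-like cells and below 5 CPM in the luminal classes, and *Cbfb* at 28.6 to 48.8 CPM.

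In basal-like cells 2 of 6 relatives passed over the locations, against 20.6% of all genes. They were *Trp53* and *Snai3*, both with the lowest mean in the nipple. *Trp53* was at 335 ± 90.4 CPM in the TEB, 208 ± 68.7 in the duct and 194 ± 59.8 CPM in the nipple (nipple minus TEB -0.79, SE 0.26, edgeR adjusted p = 0.0291). *Snai3* was at 2.99 ± 3.85 CPM in the nipple against 29.8 ± 11.9 in the duct and 31.4 ± 28.3 CPM in the TEB (nipple minus TEB -3.20, SE 0.93, adjusted p = 0.0135). *Elf3*, an epithelial ETS factor, was the relative that passed in both luminal classes (1 of 5 and 1 of 4 tested, against 5.70% and 4.38% of all genes), in opposite directions. In ER+ cells it was at 287 ± 30.7 CPM in the TEB and 148.001 ± 74.0 in the nipple (nipple minus TEB -0.94, SE 0.23, adjusted p = 0.0109). In ER- cells it was at 82.8 ± 21.7 in the TEB, 171 ± 48.1 in the duct and 421 ± 142 CPM in the nipple (nipple minus TEB 2.32, SE 0.34, adjusted p = 3.02e-05; nipple minus duct 1.30, SE 0.29, adjusted p = 0.0115). The difference between the classes was not tested for *Elf3*. In nipple ER- cells *Elf3* and *Ehf* were thus both high while *Elf5* was low.

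Of 41 other regulators of mammary or epithelial lineages, 23 were tested in basal-like cells and 11 passed over the locations, against 20.6% of all genes. The smallest p-values belonged to *Id1*, *Lmo4* and *Cebpb*. *Id1*, an inhibitor of bHLH factors, was at 232 ± 86.1 CPM in the duct, 59.6 ± 29.2 in the nipple and 60.4 ± 26.0 CPM in the TEB (duct over TEB 1.90, SE 0.33, edgeR adjusted p = 7.63e-05). *Lmo4*, a LIM-only cofactor, was at 491 ± 132 CPM in the TEB against 159 ± 84.4 in the duct (duct minus TEB -1.65, SE 0.25, adjusted p = 8.49e-06). *Cebpb*, a leucine zipper factor, followed the order of *Sox9* and *Runx1*, with 309.8 ± 117 in the nipple, 229.7 ± 45.6 in the duct and 116 ± 42.9 CPM in the TEB (nipple over TEB 1.42, SE 0.27, adjusted p = 0.000168). Between nipple and TEB 9 of the 23 were called, 3 higher in the nipple and 6 in the TEB (18.7% of all genes in either direction), with a median log2 difference of -0.31 beside -0.05 over all genes.

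In ER+ cells 3 of 25 such regulators passed, against 5.70% of all genes. *Hes1*, the Notch target, was at 2103 ± 206 CPM in the TEB and 1096 ± 324 in the nipple (nipple minus TEB -0.93, SE 0.16, edgeR adjusted p = 0.000434). *Id2* ran the other way, 475 ± 222 CPM in the nipple and 106 ± 59.3 in the TEB (2.17, SE 0.40, adjusted p = 0.00354). *Klf4*, a Krüppel-like factor of differentiating epithelia, was lower in the TEB than in the duct in ER+ cells (duct over TEB 1.37, SE 0.36, adjusted p = 0.0487). In ER- cells *Klf4* was the 1 of 19 that passed, a share near the 4.38% of all genes. It was at 86.7 ± 19.5 CPM in the duct and 9.08 ± 8.17 CPM in the TEB (3.20, SE 0.70, adjusted p = 0.011).

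Genes described as targets of these factors were taken as a further list of 16. In basal-like cells 8 of the 9 tested passed over the locations (20.6% of all genes did), and in the comparison of duct with TEB 5 were higher in the duct and 1 in the TEB (10.4% of all genes in either direction). *Krt14*, a keratin that p63 is known to activate, was at 6174 ± 549 CPM in the nipple, 4565 ± 448 in the duct and 552 ± 200.1 CPM in the TEB (nipple over TEB 3.47, SE 0.19, edgeR adjusted p = 3.58e-11). *Cdh1* (E-cadherin), which Slug is known to repress, was at 356 ± 73.5, 205 ± 49.96 and 91.8 ± 20.3 CPM in nipple, duct and TEB (nipple over TEB 1.95, SE 0.24, adjusted p = 2.36e-07). *Vim*, a mesenchymal filament gene, was also lowest in the TEB (1.63, SE 0.21, adjusted p = 3.51e-07). These 3 basal-like cell comparisons share their fragments with those of the factors and are given side by side only. *Krt14* is also one of the markers that named the class.

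In the luminal classes 3 of 9 (ER+) and 3 of 6 (ER-) tested targets passed, against 5.70% and 4.38% of all genes. Each was called higher in the nipple than in the TEB, where 5.67% and 4.65% of all genes were called in either direction. *Perp*, a desmosome gene of the p63 programme, was at 553 ± 41.97 CPM in nipple and 325 ± 48.4 in TEB ER+ sums (0.77, SE 0.15, edgeR adjusted p = 0.00111), and at 575 ± 257 and 246 ± 95.02 CPM in ER- sums (1.22, SE 0.30, adjusted p = 0.0136). *Cdkn1a*, the cell cycle inhibitor p21, was at 662 ± 233 CPM in nipple and 258 ± 160 in TEB ER- sums (1.34, SE 0.34, adjusted p = 0.0207). *Krt14* and *Krt5* made up the rest, both basal markers.

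The genes most like each factor were sought by Pearson correlation of log2(CPM + 1) over the 46 sums of fragment and class among 9554 genes. The points share fragments, and the coefficients mostly reflect the classes. The most alike were *Fam65b* (0.88) and *Dlk2* (0.87) for *Trp63*, and *Fam65b* (0.94) and *Nipal4* (0.93) for *Snai2*. For *Sox9* they were *Sdc4* (0.83) and *Anxa2* (0.78), and for *Sox10* *Zfp36l2* and *Cadm1* (both 0.89). *Elf5* was most like *Slc1a1* (0.85) and *Rbp7* (0.81), and *Ehf* most like *Cldn3* (0.92) and *St14* (0.91). *Foxa1* was most like *Capn8* and *Stc2* (both 0.86), *Gata3* like *Mlph* (0.80) and *Ndufa7* (0.75), *Tbx3* like *Gsn* (0.78) and *Nr1d1* (0.76), and *Runx1* like *Mt1* (0.75) and *Lamp2* (0.74). The highest coefficients belonged to *Snai2* and *Ehf*, the factors with the widest spread between classes, and the lowest to *Runx1*, whose level varied by location in basal-like cells.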

How the data were processed

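The authors sorted single cells into 96-well plates, made 3' end libraries with UMIs, trimmed reads, aligned them to mm10 with STAR and counted genes with featureCounts; tool versions are not given in the sources used here. The values used are the deposited UMI counts per gene and cell, not normalized. Cells with at most 5% spike-in UMIs, 5000 to 120000 UMIs and 200 to 6000 genes were kept. They were clustered in Seurat 5.3.0 (2000 variable genes without the 10 factors, 14 components, resolution 0.5, regression of spike-in share, cell cycle and gene number), and clusters were named from marker lists. All 95 well labels occur in more than 1 library, by the layout of the plates. No doublet caller was run, since cells were sorted 1 to a well. Sums per fragment and class (5 or more cells) were tested in edgeR 4.0.16 (TMM, filterByExpr, robust quasi-likelihood), with Benjamini-Hochberg adjustment over all genes tested. DESeq2 1.42.0 and other settings were alternatives. A zero count allows up to 3 counts; intervals are exact at 95%. The factors, gene lists and markers were chosen with earlier results of these data known. Named were all 10 factors, from each list the 3 genes with the smallest p-value over the locations among those past the threshold in a class, relatives at 10 CPM or more, and the 2 most alike genes. The share of RNA from other wells was taken, in each fragment, as the median share of fibroblast and myeloid marker UMIs in cells of a class over their share in all wells of the fragment, times the factor's share in all wells. Positions are from GENCODE M21. Not every promoter window is reported here. The fits were tested on simulated data: of 100 genes changed by 2 on the log2 scale in the TEB, 72% were recovered in basal-like cells, 80% in ER+ cells and 39% in ER- cells; of those changed by 1, 8%, 13% and 3% were. For the class by location term (basal-like against ER+) the shares were 12% and 0%.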

Additional observations from a re-analysis of the deposited data

Results flagged for a closer look

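In 4 of 60 groups of a factor, class and location, 1 fragment stood far from the others, where chance gives about 1 in 20 groups. *Snai2* in basal-like cells was at 206.8 CPM in nipple N22, with the next nipple at 123.2 CPM. *Gata3* in basal-like cells was at 180.5 CPM in TEB T34, with the next TEB at 85.05 CPM. *Runx1* in basal-like cells was at 786 CPM in nipple N24, with the next nipple at 487.9 CPM. *Ehf* in ER+ luminal-like cells was at 80.15 CPM in nipple N23, with the next nipple at 39.01 CPM.

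The change with location was not the same in the basal-like class and in the ER+ class for *Runx1* (class by location term, edgeR adjusted p = 1.218e-06) and for *Sox9* (adjusted p = 1.852e-05).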

How the results depend on the processing

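Of 41 counts of factors past the threshold under other settings, 34 stayed within 1.5 times the reported count, and of 151 log2 differences 132 kept their direction and side of the threshold, 19 lost the call and 0 reversed. In basal-like cells the 4 factors became 2 with at least 10 cells per sum and 2 with cells thinned to 5000 UMIs. In ER+ cells the 1 factor became 2 with no filter on low counts and 0 with thinned cells. In ER- cells the 2 factors became 0 with classes taken from marker lists. With at least 10 cells per sum only 1 TEB, T33, kept an ER- sum, so the count for that setting is not given. The ER+ and ER- term went from 0 factors to 1 with no filter. Leaving out 1 fragment gave 1 to 2 factors in ER+ cells (2 without nipple N24), 1 to 2 in ER- cells (1 without duct D32, duct D61, nipple N24 or TEB T34) and 0 to 1 for the ER+ and ER- term (1 without nipple N24). The causes were not tested. With thinned cells, an alternative for the levels chosen after seeing the data, the log2 ratio of *Sox10* in ER- over basal-like cells turned from 0.05 to -0.029. Without regression before clustering no nipple basal-like sum remained, since nipple and TEB basal cells left the class, and basal-like cells could not be fitted.

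Ducts and TEBs share the label numbers 31 and 32, and no label says that these mark a shared animal. With the number as a replicate block over those 4 fragments, 0 factors passed between duct and TEB in basal-like cells, as without the block on the same fragments, with *Runx1* at 1.57 (edgeR adjusted p = 0.0559). In ER+ cells 1 passed, *Gata3*, at -0.80 (adjusted p = 0.0123). ER- cells had too few sums for the block.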
